A study of Arabidopsis thaliana with 33 samples.

Results

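The 45 genes described here encode proteins of the cytosolic ribosome of Arabidopsis thaliana, and they were taken by gene identifier from a table of 33557 genes. Of these genes, 23 encode proteins of the large (60S) subunit and 22 proteins of the small (40S) subunit, and together they fall into 24 protein families. The rule that chose them names genes and uses no measured value, but it was written with earlier results of these data known. Every level given here is an FPKM value (fragments mapped to a transcript, scaled by its length and by the size of the library).

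Aerial parts of 20-day-old plants were sequenced as poly(A) RNA in 33 libraries, with 3 per genotype. The plants were kept on MS for 6 days and then in soil for 14 days, and the recorded hour of collection was 15:00. The plants were untreated and of 11 genotypes. Beside wild-type Col-0 there were plants with 1 mutant allele (ein5-1, ski2-2, dcl4-2 or dcl2-1), with 2 alleles (ein5-1 or ski2-2, each joined with dcl4-2 or with dcl2-1) and with 3 alleles (ein5-1 dcl4-2 dcl2-1, or ski2-2 with the same dcl alleles). EIN5 is a cytoplasmic 5′ to 3′ exoribonuclease and SKI2 a helicase that passes RNA to the 3′ to 5′ exosome, while DCL4 and DCL2 cut double-stranded RNA into small interfering RNAs (siRNAs) of different lengths. The title of the study names translational repression by siRNAs of the DCL2 length class, and the mRNAs described here encode part of the machinery of translation. The table holds 1 FPKM value per gene and genotype, pooled by the authors over the 3 libraries, so the levels have no SD, and the sequencing depth is unknown.

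A cytosolic ribosome contains 1 copy of most of its proteins beside the ribosomal RNAs. The small subunit reads the mRNA, and the large subunit joins the amino acids and holds the exit tunnel for the new chain. In plants nearly every ribosomal protein is encoded by several genes, called copies here. The mRNAs are abundant in growing tissue, and their amounts are known to follow sugar, the TOR kinase and the time of day. Among the members are the L10 proteins, which join the large subunit late, the L5 proteins, which bind 5S rRNA, the L24 proteins, which form a bridge between the subunits, the S6 proteins, which are phosphorylated downstream of TOR, and the S4/S9 proteins, which bind the small subunit's rRNA early. The large-subunit gene STV1 (AT3G53020) is known for its role in gynoecium development, and PFL (AT1G22780, S18 family) and PGY1 (AT2G27530) for leaf shape.

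A pair of motifs is known from promoters of plant ribosomal protein genes: the telo box (AAACCCTA) and the site II element (TGGGCC or TGGGCT), each searched on both strands. In the 250 bases before the annotated start, site II occurred in 29 of the 45 members (64.4%), against 19.4% of 26686 protein-coding genes in the table. The telo box occurred in 5 members (11.1%), against 4.45% of those genes. Of 170 other cytosolic ribosomal protein genes, 68.2% held site II and 21.8% the telo box. For 35 ribosome assembly factor genes these shares were 57.1% and 17.1%. They were 38.2% and 11.8% for 34 plastid ribosomal protein genes, and 50% and 14.3% for 14 translation elongation factor genes. The stretches before the start are printed for a pair of copies each of the S4/S9 and L24 families, as examples in which 1 copy holds site II and its partner does not. Other families whose copies moved apart were of either kind. In S21e AT3G53890 held 0 and AT5G27700 held 2 site II elements, while in L10 SAC52 and SAG24 held 1 each. In S6 RPS6A held 1 and RPS6B held 3, of which those at 56 and 58 bases before the start overlap. They are the same TGGGCCCA read on either strand. The printed stretches come from the RefSeq annotation of TAIR10.1 and run 5′ to 3′ on the gene's strand up to the base before the start. They leave out exons of neighbouring genes, and capitals mark either motif. The stretches lie at chr5:4936430-4936679 (minus strand) for AT5G15200, at chr5:15949660-15949909 (plus strand) for AT5G39850, at chr3:19662026-19662194 (minus strand) for STV1 and at chr2:15352014-15352263 (minus strand) for RPL24A.
AT5G15200: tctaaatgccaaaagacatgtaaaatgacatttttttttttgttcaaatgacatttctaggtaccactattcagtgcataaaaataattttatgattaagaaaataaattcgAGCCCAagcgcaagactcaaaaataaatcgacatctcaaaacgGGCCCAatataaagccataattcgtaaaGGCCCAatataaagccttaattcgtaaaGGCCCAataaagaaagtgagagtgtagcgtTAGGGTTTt
AT5G39850: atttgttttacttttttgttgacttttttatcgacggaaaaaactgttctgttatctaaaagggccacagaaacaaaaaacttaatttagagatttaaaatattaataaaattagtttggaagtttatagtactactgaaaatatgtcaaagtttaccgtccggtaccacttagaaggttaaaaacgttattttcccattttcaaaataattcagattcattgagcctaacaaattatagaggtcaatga
STV1: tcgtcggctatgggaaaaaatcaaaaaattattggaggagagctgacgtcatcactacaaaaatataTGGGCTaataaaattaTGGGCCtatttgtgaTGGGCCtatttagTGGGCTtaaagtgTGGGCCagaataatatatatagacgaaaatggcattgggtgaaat
RPL24A: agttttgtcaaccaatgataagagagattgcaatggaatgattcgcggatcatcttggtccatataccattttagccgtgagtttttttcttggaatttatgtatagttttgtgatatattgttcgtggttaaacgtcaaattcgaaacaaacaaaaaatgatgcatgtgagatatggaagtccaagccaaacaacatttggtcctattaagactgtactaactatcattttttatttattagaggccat
The stretch of AT5G15200 held 4 site II elements and 1 telo box, and that of STV1 held 5 site II elements. The stretches of their partners AT5G39850 and RPL24A held 0 of either motif. This describes the letters in these windows and says nothing of the factors that bind them.

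All 45 members were at 1 FPKM or more in every genotype, so none was lost to the filter on low values. Levels ran from 9.06 FPKM for RPL3B in ein5-1 to 891 FPKM for AT1G70600 (L15 family) in ski2-2 dcl2-1. The highest level of a member over its lowest across the 11 genotypes had a median of 2.02, against 2.41 for 14161 genes with a mean of 5 FPKM or more and no listed 0. This ratio was under 2.5 in 37 members, between 2.5 and 3 in 6 and at 3 or more in 2, and it was largest, at 6.35, for AT5G39850. By mean over the genotypes the members ranged from RPL10B, at 16.2 FPKM, to SAC52, at 651 FPKM, and the order of neighbouring members cannot be judged because the values have no spread.

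The FPKM of all members together came to 14988 in Col-0. It was lower in ein5-1, at 9667, in ski2-2, at 9552, in ski2-2 dcl4-2 dcl2-1, at 10400.1, in ein5-1 dcl4-2, at 11067, in ski2-2 dcl4-2, at 11388, and in dcl4-2, at 12010. It was higher in dcl2-1, at 16010, in ski2-2 dcl2-1, at 16631, in ein5-1 dcl4-2 dcl2-1, at 17032, and in ein5-1 dcl2-1, at 17210. The genotypes above Col-0 all carried dcl2-1, and the remaining dcl2-1 genotype, ski2-2 dcl4-2 dcl2-1, lay below it. As a share of all FPKM the order differed: the members took 1.21% in Col-0, 0.894% in ski2-2 and 1.51% in ski2-2 dcl4-2, the highest share, where the FPKM of all genes summed to 753957 against 1243560 in Col-0. In bulk tissue fewer cells of a type and less RNA per cell cannot be told apart.

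**Figure D1:**
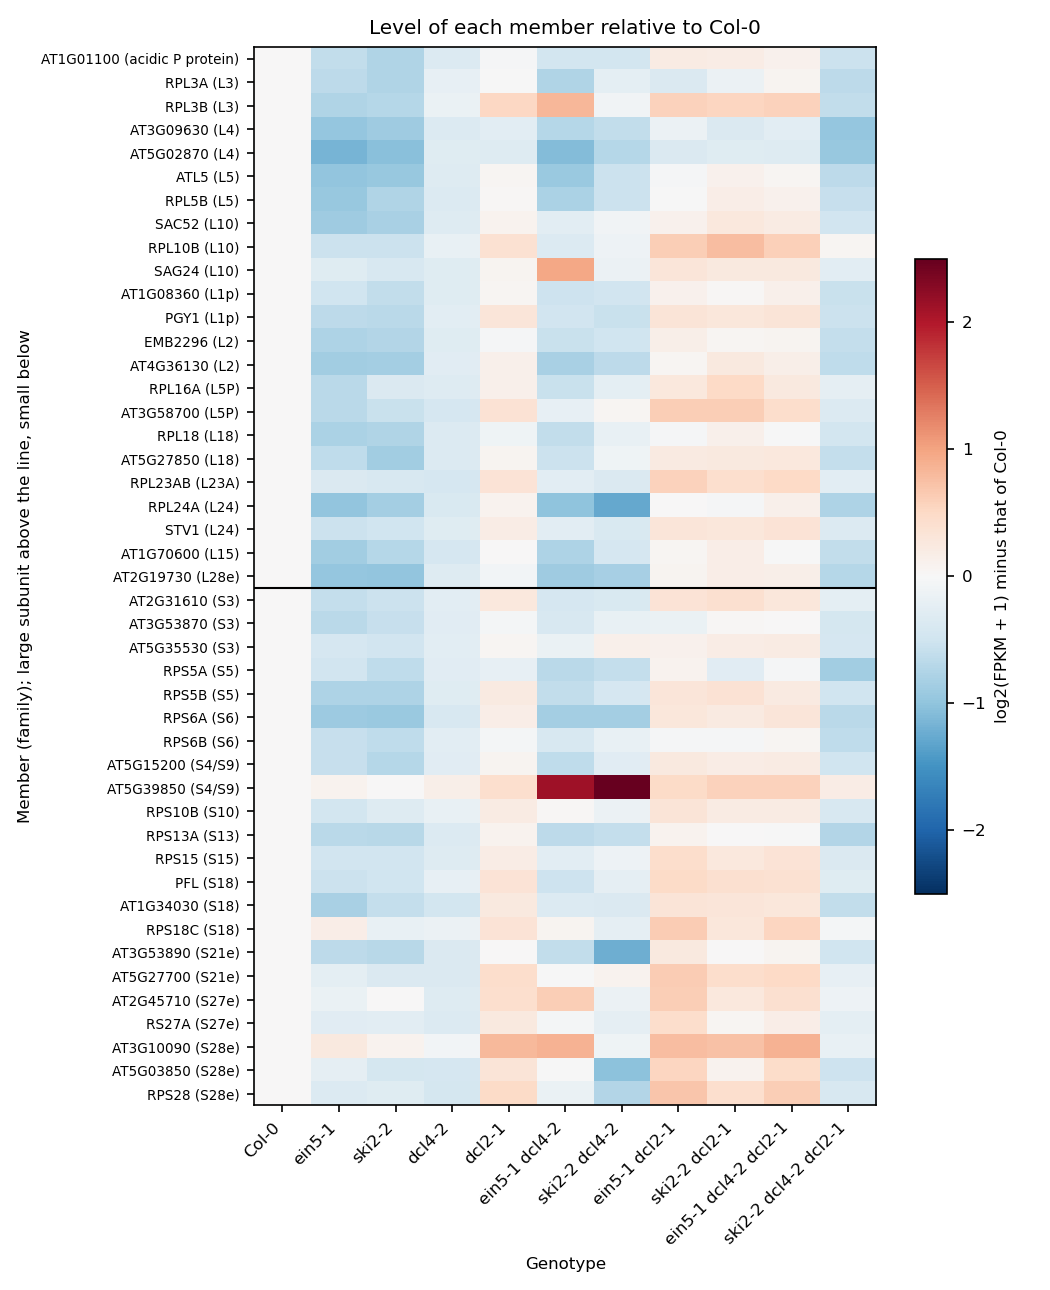
Each row is a member with its family and each column a genotype, and the colour gives log2(FPKM + 1) minus that of Col-0 from pooled values without spread. Most rows are blue in ein5-1 and ski2-2 and pale red in dcl2-1, ein5-1 dcl2-1, ski2-2 dcl2-1 and ein5-1 dcl4-2 dcl2-1, while AT5G39850 is dark red in the double mutants with dcl4-2.

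Markers of tissue, growth and time of day differed between the same genotypes. The labelled tissue held RBCS1A, the small subunit of Rubisco, at 2872 to 28453 FPKM. The summed FPKM of 5 leaf markers was 91878 in Col-0, 10428 in ein5-1 dcl4-2 and 18703 in ski2-2 dcl4-2, and lay between 38017 and 84251 elsewhere; CAB1 among them was listed at 0 in dcl2-1. That of 5 markers of dividing cells was 18.7 in ein5-1 dcl4-2 and 30.3 in ski2-2 dcl4-2 and between 64.0 and 104 elsewhere. The sum of 5 root markers was 264 and 758 FPKM in those double mutants and at most 73.7 elsewhere. PYK10 alone was at 254 and 673 FPKM in them. Against Col-0, IRT1, AT4G30170 and RCI3 did not pass the authors' q in ein5-1 dcl4-2, and IRT1 did not in ski2-2 dcl4-2. The morning gene CCA1 of the circadian clock was at 3.32 FPKM in dcl2-1, 5.14 in ein5-1 dcl2-1, 6.74 in ski2-2 dcl2-1 and 9.34 in ein5-1 dcl4-2 dcl2-1, the genotypes with the highest sums of the members. CCA1 stood at 180 in ein5-1, 170 in ski2-2 and 165 in ski2-2 dcl4-2 dcl2-1, the genotypes with the lowest sums, and at 102 in Col-0. By CCA1 the other genotypes did not follow this inverse order. CCA1 was at 69.3 in ein5-1 dcl4-2, 80.0 in ski2-2 dcl4-2 and 85.5 in dcl4-2. There both CCA1 and the sum of the members were below Col-0. LHY, a close relative of CCA1, was at 61.1 FPKM in Col-0. It was higher in ein5-1 dcl4-2, at 148, and in ski2-2 dcl4-2, at 115, and lower in dcl4-2, at 47.3. The part of these markers in the results was not tested. Among the mutated genes, DCL2 was at 1.23 to 2.35 FPKM in the dcl2-1 genotypes against 4.89 to 9.02 elsewhere, and EIN5 at 6.88 to 11.2 in the ein5-1 genotypes against 13.4 to 20.8. The ranges of SKI2 and DCL4 overlapped between genotypes with and without their alleles.

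Differences of the single mutants from Col-0 had no test and are given by size on the log2(FPKM + 1) scale. In ein5-1, 42 of 45 members were lower, with a median of -0.64, against 0.06 for all 18475 genes at 1 FPKM or more in either genotype. In ski2-2, 42 were lower, with a median of -0.63 against 0.04 for all genes. In dcl4-2, 44 were lower, with a median of -0.32 against -0.01. Of all genes 44.6% were lower in ein5-1, 46.4% in ski2-2 and 53.4% in dcl4-2. At 2-fold or more, 1 member differed in ein5-1 and 1 in ski2-2, where 7.43% and 5.56% of all genes did, and 0 in dcl4-2, where 1.51% did. That member was AT5G02870 (L4 family, a protein of the exit tunnel) in both: its level was 379 FPKM in Col-0, 169 in ein5-1 and 184 in ski2-2. In dcl2-1, 35 members were higher and 10 lower, with a median of 0.12 against 0.04, where 53.3% of all genes were higher. The largest difference there was that of AT3G10090 (S28e family), at 86.6 against 49.3 FPKM.

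Most members had a lower level in the double mutant ein5-1 dcl4-2 than in Col-0. Against Col-0, 31 of 45 members fell and 5 rose in ein5-1 dcl4-2 in the authors' deposited table at a q of 0.05 with at least 1 FPKM in either genotype, where 29.7% of 19493 genes fell and 37.3% rose. These q-values measure at most the spread between libraries, and whether the 3 libraries of a genotype came from separate sowings is not stated. The median log2 ratio of the authors' deposited table was -0.47 for the members and 0.13 for all genes. Of the large-subunit members 19 of 23 fell, and of the small-subunit members 12 of 22. Among those that fell in the authors' deposited table were ATL5 (L5 family), from 428 to 225 FPKM, RPL5B, from 326 to 188.5, RPS6A, from 419 to 233, and AT2G19730 (L28e family), from 432 to 234. At 2-fold or more only AT5G02870 and RPL24A fell, where 16% of all genes did.

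The 5 members that rose in ein5-1 dcl4-2 against Col-0 in the authors' deposited table were AT5G39850, SAG24, AT3G10090, RPL3B and AT2G45710 (S27e family). Each was a lower copy of its family, and each also rose against ein5-1 and against dcl4-2. For the double mutant against ein5-1, 16 members rose and 0 fell in the authors' deposited table, where 32.7% of 19426 genes rose and 29% fell, with a median of 0.17 for the members. Against dcl4-2, 9 rose and 20 fell, where 37.4% of 19559 genes rose and 29.1% fell, with a median of -0.17. These comparisons share the double mutant's libraries. The lowest ratio against ein5-1 in the authors' deposited table was that of RPS5A, at 268 against 309 FPKM (log2 ratio -0.21), which did not pass Cuffdiff's q (0.0658).

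In ski2-2 dcl4-2 against Col-0, 24 members fell and 1 rose in the authors' deposited table, where 28.3% of 19717 genes fell and 30.3% rose, with a median of -0.34 for the members that quantile normalization turned to 0.05. Of the 24 that fell, 9 had a positive difference after quantile normalization, and 0 did after median-of-ratios scaling. The falls of RPL24A, AT3G53890, AT5G03850, RPS6A and RPS28 kept their direction under either scaling. The fall against Col-0 in the authors' deposited table was 2-fold or more for RPL24A, AT3G53890 and AT5G03850, where 13.5% of all genes fell that far. AT5G39850 was the member that rose.

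Against ski2-2, 21 members rose and 4 fell in ski2-2 dcl4-2 in the authors' deposited table, where 27.8% of 19707 genes rose and 29.7% fell, with a median of 0.24 that was 0.63 under quantile normalization. The largest rise after AT5G39850 was that of AT5G27850 (L18 family), from 255 to 432 FPKM, followed by SAC52, from 414 to 681. The 4 that fell were RPL24A, AT3G53890, AT5G03850 and RPS28. Against dcl4-2, 4 members rose and 12 fell in the authors' deposited table, where 30.8% of 19748 genes rose and 27.5% fell, and the median of -0.01 turned to 0.26 under quantile normalization. Of the 12 that fell, 6 had a positive difference after quantile normalization, and 0 did after median-of-ratios scaling. AT5G27700 (S21e family), AT3G58700 (L5P family) and AT5G35530 (S3 family, at the entry of the mRNA channel) rose there beside AT5G39850.

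**Figure D2:**
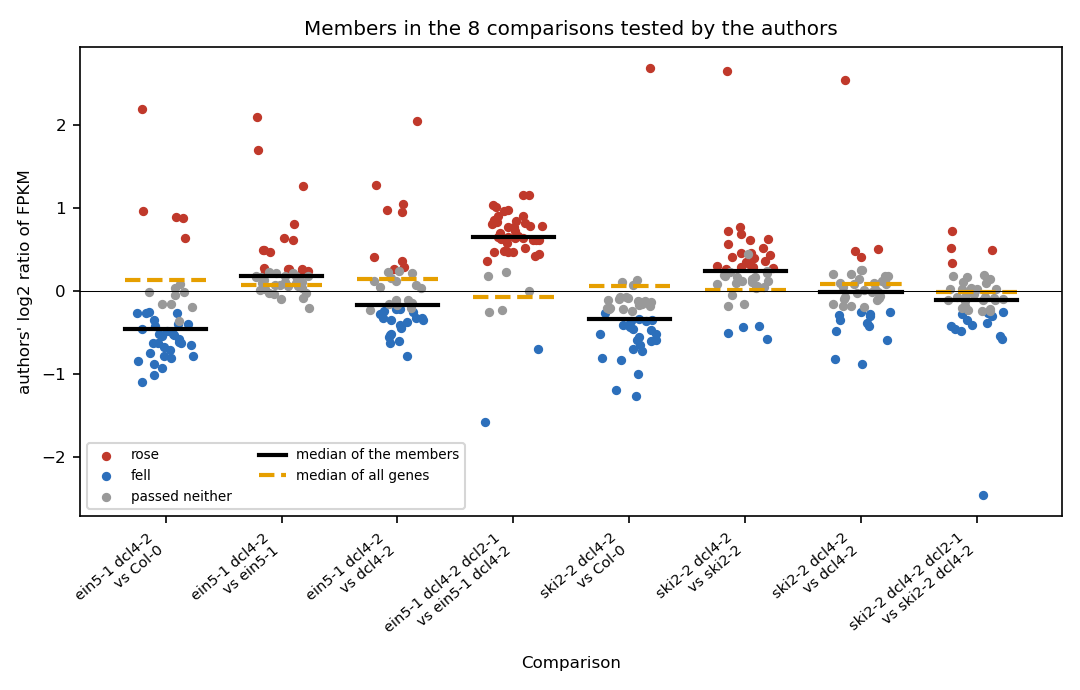
Points are the 45 members, with the authors' log2 ratio on the vertical axis and the 8 tested comparisons on the horizontal axis; black bars are the members' medians and dashed bars those of all genes. The members' median lies at -0.47 in ein5-1 dcl4-2 against Col-0 and at 0.64 after adding dcl2-1 to it, while the medians of ski2-2 dcl4-2 against Col-0, at -0.34, and against dcl4-2, at -0.01, turn positive under quantile normalization.

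The dcl2-1 allele was added to the double mutants in both backgrounds, and the difference between the backgrounds was itself not tested. In ein5-1 dcl4-2 dcl2-1 against ein5-1 dcl4-2, 38 of 45 members rose and 2 fell in the authors' deposited table, where 30.6% of 19484 genes rose and 35.3% fell, with a median of 0.64 for the members and -0.08 for all genes. In ski2-2 dcl4-2 dcl2-1 against ski2-2 dcl4-2, 4 rose and 13 fell, where 29.9% of 19717 genes rose and 28.3% fell, with a median of -0.11 for the members, which was -0.52 under quantile normalization, and -0.02 for all genes. Of the 38 members that rose in the ein5-1 background, 11 fell in the ski2-2 background, which is 28.9% of the 38 and 84.6% of the 13. These shares are near those of all 45 members, of which 28.9% fell in the ski2-2 background and 84.4% rose in the ein5-1 background, so the overlap adds nothing to the counts. Of 18850 genes tested in both, 4.87% rose in the ein5-1 background and fell in the ski2-2 background. The 4 members that rose in the ski2-2 background, RPL24A, AT3G53890, AT5G03850 and RPS28, also rose in the ein5-1 background, with the direction of RPS28 in the ski2-2 background turned by quantile normalization. AT5G39850 fell in both. Few of these calls in any comparison reached 2-fold. With that minimum 3 members were called in ein5-1 dcl4-2 against Col-0, 3 against ein5-1, 3 against dcl4-2 and 5 on adding dcl2-1, where 35.4%, 29.3%, 34.1% and 34.2% of all genes were. In the ski2-2 background 4, 1, 1 and 1 were called in the matching comparisons, where 27.1%, 25.4%, 26.4% and 25.7% of all genes were.

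The clock state differed along with these results. CCA1 went from 69.3 FPKM in ein5-1 dcl4-2 to 9.34 in its triple mutant and from 80.0 in ski2-2 dcl4-2 to 165 in its own, and LHY, its close relative, from 148 to 3.57 and from 115 to 188. The evening gene ELF4 went from 81.6 to 47.8 FPKM in the ein5-1 background and from 47.4 to 1.98 in the ski2-2 background. PRR5 went from 11.9 to 18.3 FPKM and from 12.7 to 0.133. In Col-0, ein5-1, ski2-2 and dcl4-2, PRR5 was at 0.117 to 0.568 FPKM and ELF4 at 3.33 to 5.03. In dcl2-1, ein5-1 dcl2-1 and ski2-2 dcl2-1 they were at 15.1 to 31.1 and at 63.4 to 97.7. PRR5 and ELF4 rose in ein5-1 dcl4-2 and ski2-2 dcl4-2 against Col-0 and the matching single mutants in the authors' deposited table. The recorded hour was 15:00 for every genotype, and why these genes differed was not tested. All 5 dividing-cell markers and all 5 leaf markers rose in either triple mutant against its double mutant in the authors' deposited table. The part of either in the members' levels was not tested.

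The remaining genotypes had no test against Col-0. In ein5-1 dcl2-1, 37 of 45 members were higher than in Col-0, with a median log2(FPKM + 1) difference of 0.27. In ski2-2 dcl2-1 39 were, with a median of 0.22. Of all genes 53.8% and 53.6% were higher in these genotypes, with medians of 0.05 and 0.04. The triple mutant ein5-1 dcl4-2 dcl2-1 had 39 members above Col-0, with a median of 0.21, where 52.4% of all genes were higher. The triple mutant ski2-2 dcl4-2 dcl2-1 had 43 below it, with a median of -0.50, where 47.5% of all genes were lower. The median of all genes was 0.03 in either triple mutant. At 2-fold or more 0 members differed from Col-0 in these 4 genotypes or in dcl2-1. Of all genes 9.26% did so in dcl2-1, 10.5% in ein5-1 dcl2-1, 9.04% in ski2-2 dcl2-1, 8.25% in the triple mutant with ein5-1 and 5.48% in that with ski2-2. Over all genotypes, 20 members had their lowest level in ein5-1 and 11 in ski2-2, and 18 had their highest in ein5-1 dcl2-1 and 13 in ski2-2 dcl2-1. Because the values have no spread, the order of genotypes with close levels cannot be judged.

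AT5G39850, a small-subunit protein of the S4/S9 family that is annotated on chromosome 5 of TAIR10.1 from 15949910 to 15951475, had the widest range of all members. Its level was 13.7 FPKM in Col-0, 14.7 in ein5-1, 13.8 in ski2-2, 15.2 in dcl4-2, 18.6 in dcl2-1, 62.7 in ein5-1 dcl4-2, 87.0 in ski2-2 dcl4-2, 19.4 in ein5-1 dcl2-1, 20.8 in ski2-2 dcl2-1, 20.9 in ein5-1 dcl4-2 dcl2-1 and 15.8 in ski2-2 dcl4-2 dcl2-1. It was high in the double mutants that carry dcl4-2 with ein5-1 or ski2-2, and the other 9 genotypes lay between 13.7 and 20.9 FPKM. In the authors' deposited table it rose against Col-0 with a log2 ratio of 2.19 in ein5-1 dcl4-2 (q = 0.000201) and of 2.68 in ski2-2 dcl4-2 (q = 0.000211). When dcl2-1 was added it fell in the authors' deposited table, with log2 ratios of -1.59 and -2.46.

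Its partner AT5G15200 carried most of the family's mRNA, and its level was 718 FPKM in Col-0, 479.6 in ein5-1, 438 in ski2-2, 592 in dcl4-2, 756 in dcl2-1, 464 in ein5-1 dcl4-2, 589 in ski2-2 dcl4-2, 852 in ein5-1 dcl2-1, 818 in ski2-2 dcl2-1, 831 in ein5-1 dcl4-2 dcl2-1 and 509 in ski2-2 dcl4-2 dcl2-1. AT5G15200 fell in ein5-1 dcl4-2 against Col-0 in the authors' deposited table (log2 ratio -0.63), and in ski2-2 dcl4-2 its log2 ratio of -0.27, which passed the q, turned to 0.52 under quantile normalization. The share of AT5G39850 in the family's FPKM was 1.87% in Col-0, 11.9% in ein5-1 dcl4-2 and 12.9% in ski2-2 dcl4-2, and at most 3.06% in the other genotypes. The coding sequences of these copies were 80.8% identical, and AT5G39850 shared no transcript window of 100 bases with another annotated gene.

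The mix of copies in the L10 family differed most in ein5-1 dcl4-2. SAG24 (AT1G66580, listed in RefSeq under the synonym RPL10C) was at 191 FPKM in Col-0, 155 in ein5-1, 144 in ski2-2, 153 in dcl4-2, 200.3 in dcl2-1, 371 in ein5-1 dcl4-2, 171 in ski2-2 dcl4-2, 234 in ein5-1 dcl2-1, 225 in ski2-2 dcl2-1, 227 in ein5-1 dcl4-2 dcl2-1 and 159 in ski2-2 dcl4-2 dcl2-1. Its level in ein5-1 dcl4-2 lay above that of every other genotype, of which the highest was 234 FPKM. The log2 ratio of SAG24 in the authors' deposited table was 0.96 against Col-0 in ein5-1 dcl4-2 (q = 0.000201) and -0.14 in ski2-2 dcl4-2 (q = 0.318). SAC52, the main copy, was at 724 FPKM in Col-0, 393 in ein5-1, 414 in ski2-2, 580.4 in dcl4-2, 771 in dcl2-1, 599.7 in ein5-1 dcl4-2, 681 in ski2-2 dcl4-2, 777 in ein5-1 dcl2-1, 875 in ski2-2 dcl2-1, 832 in ein5-1 dcl4-2 dcl2-1 and 519 in ski2-2 dcl4-2 dcl2-1. The share of SAG24 in the family was 37.8% in ein5-1 dcl4-2 and 19.8% to 27.8% elsewhere. RPL10B, the third copy, stayed between 9.75 and 25.8 FPKM. 

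RPL3B, the minor copy of the L3 family, whose proteins lie near the peptidyl transferase centre, was at 16.0 FPKM in Col-0, 9.06 in ein5-1, 9.42 in ski2-2, 14.2 in dcl4-2, 23.3 in dcl2-1, 29.3 in ein5-1 dcl4-2, 15.1 in ski2-2 dcl4-2, 24.4 in ein5-1 dcl2-1, 23.6 in ski2-2 dcl2-1, 24.5 in ein5-1 dcl4-2 dcl2-1 and 10.1 in ski2-2 dcl4-2 dcl2-1. It was highest in ein5-1 dcl4-2 and lowest in ein5-1, and in the authors' deposited table its log2 ratio between these was 1.69 (q = 0.000201). RPL3B overlaps AT1G61575 on the opposite strand, and whether the counting used strand is not stated. AT3G10090, the minor S28e copy, was at 49.3 FPKM in Col-0, 58.8 in ein5-1, 52.3 in ski2-2, 47.2 in dcl4-2, 86.6 in dcl2-1, 91.2 in ein5-1 dcl4-2, 45.8 in ski2-2 dcl4-2, 84.8 in ein5-1 dcl2-1, 83.1 in ski2-2 dcl2-1, 91.2 in ein5-1 dcl4-2 dcl2-1 and 43.5 in ski2-2 dcl4-2 dcl2-1. Its level was high in ein5-1 dcl4-2 and in the dcl2-1 genotypes other than ski2-2 dcl4-2 dcl2-1, and its log2 ratio in ein5-1 dcl4-2 against Col-0 was 0.89 in the authors' deposited table.

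RPL24A was the member with the lowest ratio in ski2-2 dcl4-2 against Col-0, and its level was 322 FPKM in Col-0, 163 in ein5-1, 177 in ski2-2, 247 in dcl4-2, 345 in dcl2-1, 159 in ein5-1 dcl4-2, 132 in ski2-2 dcl4-2, 326 in ein5-1 dcl2-1, 314 in ski2-2 dcl2-1, 353 in ein5-1 dcl4-2 dcl2-1 and 189 in ski2-2 dcl4-2 dcl2-1. It was low in ein5-1, ski2-2, both of their double mutants with dcl4-2 and ski2-2 dcl4-2 dcl2-1. It fell against Col-0 in the authors' deposited table with log2 ratios of -1.02 in ein5-1 dcl4-2 and -1.27 in ski2-2 dcl4-2, and rose by 1.15 and 0.52 when dcl2-1 was added. RPL24A overlaps AT2G36610 on the opposite strand. STV1, the other L24 copy, lay between 339 and 628 FPKM, and its share of the family ran from 60.5% in Col-0 to 74.2% in ski2-2 dcl4-2.

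**Figure D3:**
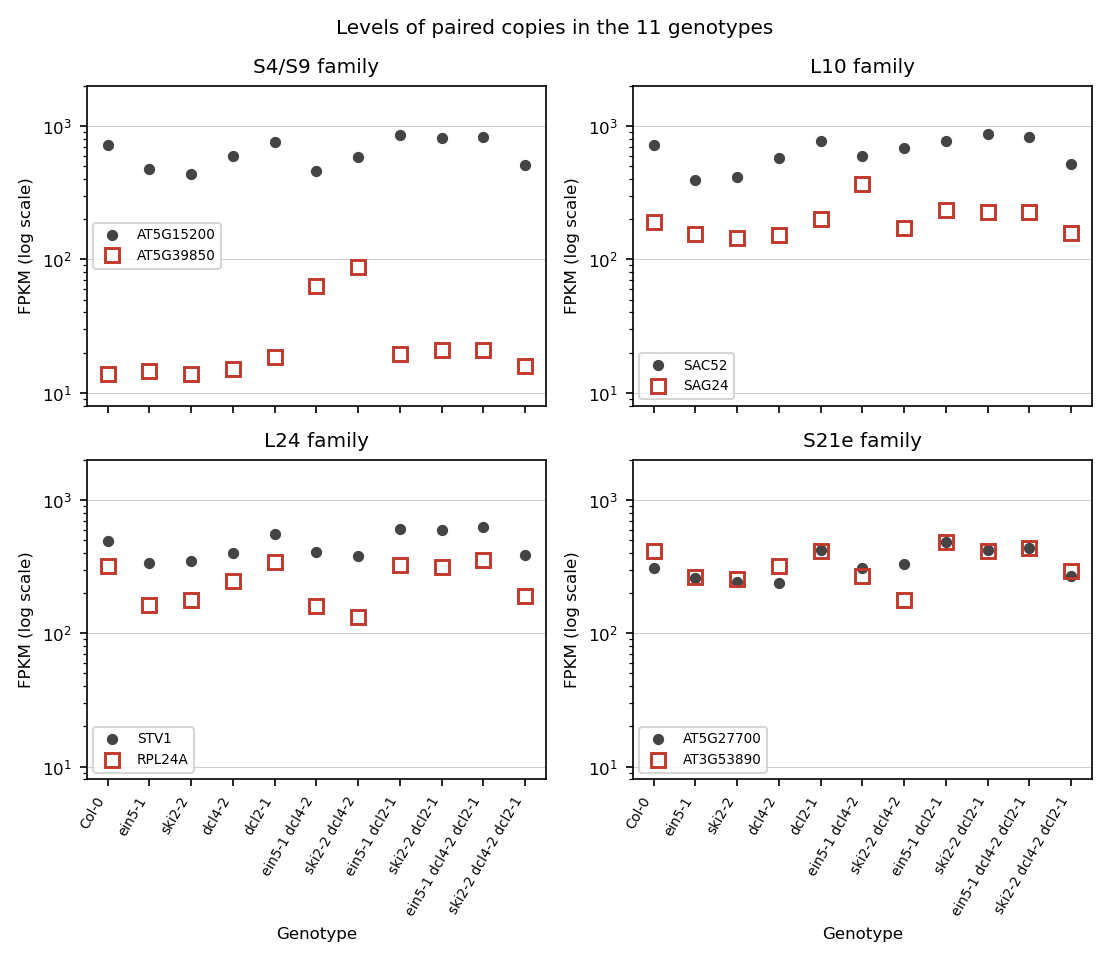
FPKM on a log axis is plotted for the 11 genotypes, with filled circles for a copy and open squares for its partner in the S4/S9, L10, L24 and S21e families. AT5G39850 reaches 62.7 and 87.0 FPKM in the double mutants with dcl4-2, SAG24 reaches 371 in ein5-1 dcl4-2, and AT3G53890 is at 178 in ski2-2 dcl4-2 while AT5G27700 is at 331.

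A member of the S21e family and a pair of the S28e family had their lowest levels in ski2-2 dcl4-2. AT3G53890 (S21e) was at 413 FPKM in Col-0, 263 in ein5-1, 254 in ski2-2, 319 in dcl4-2, 416 in dcl2-1, 269 in ein5-1 dcl4-2, 178 in ski2-2 dcl4-2, 486 in ein5-1 dcl2-1, 417 in ski2-2 dcl2-1, 435 in ein5-1 dcl4-2 dcl2-1 and 293 in ski2-2 dcl4-2 dcl2-1. AT5G03850 (S28e) was at 501 FPKM in Col-0, 428 in ein5-1, 371 in ski2-2, 376 in dcl4-2, 624 in dcl2-1, 497 in ein5-1 dcl4-2, 246 in ski2-2 dcl4-2, 732 in ein5-1 dcl2-1, 534 in ski2-2 dcl2-1, 689 in ein5-1 dcl4-2 dcl2-1 and 347 in ski2-2 dcl4-2 dcl2-1. Each had its lowest level in ski2-2 dcl4-2, and so had RPS28, at 228 FPKM there and 382 in Col-0. Within the authors' deposited table AT3G53890 and AT5G03850 fell in ski2-2 dcl4-2 against Col-0, ski2-2 and dcl4-2, with log2 ratios of -1.20, -0.52 and -0.83 and of -1.01, -0.59 and -0.59. The summed FPKM of the 3 S28e copies was 932.5 in Col-0, 521 in ski2-2 dcl4-2 and 1438 in ein5-1 dcl2-1.

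The S6 copies stood in a different order in some genotypes. RPS6A was at 419 FPKM in Col-0, 224 in ein5-1, 218 in ski2-2, 316 in dcl4-2, 471 in dcl2-1, 233 in ein5-1 dcl4-2, 232 in ski2-2 dcl4-2, 507 in ein5-1 dcl2-1, 489 in ski2-2 dcl2-1, 519.8 in ein5-1 dcl4-2 dcl2-1 and 261 in ski2-2 dcl4-2 dcl2-1. RPS6B was at 376 FPKM in Col-0, 252 in ein5-1, 243 in ski2-2, 315 in dcl4-2, 363 in dcl2-1, 284 in ein5-1 dcl4-2, 332 in ski2-2 dcl4-2, 368 in ein5-1 dcl2-1, 369.6 in ski2-2 dcl2-1, 387 in ein5-1 dcl4-2 dcl2-1 and 241 in ski2-2 dcl4-2 dcl2-1. RPS6A had the higher value in Col-0 and every dcl2-1 genotype, and RPS6B in ein5-1, ski2-2 and both of their double mutants with dcl4-2, while the values in dcl4-2 were nearly equal. Without a spread, no order within a genotype could be tested. The share of RPS6A was lowest in ski2-2 dcl4-2, at 41.1%, and highest in ein5-1 dcl2-1, at 57.9%. In ski2-2 dcl4-2 against Col-0, the authors' deposited table gave a log2 ratio of -0.84 for RPS6A (q = 0.000211) and of -0.17 for RPS6B (q = 0.212).

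Shares were taken of the summed FPKM of the members in a family, so copies outside the 45 are not in them. Of the 17 families with more than 1 member, 10 kept the share of each copy within 10 percentage points over the 11 genotypes and 7 did not. The widest range was 22.1 points for S21e, followed by 17.97 for L10, 16.8 for S6, 15.1 for S18, 14.0 for S5, 13.7 for L24 and 11.001 for S4/S9. In S18, RPS18C took 50.9% in ein5-1 and 35.8% in ski2-2 dcl2-1. In S5, RPS5A took 75.8% in ein5-1 and 61.9% in ski2-2 dcl2-1. The narrowest range was 3.52 points, in the L5 family of ATL5 and RPL5B. The copy with the highest level was the same in every genotype in 11 families. Copies in the table had coding sequences 79.0% to 92.7% identical over 25 pairs, and 40 of 45 members shared no 100-base transcript window with another gene. The annotation of 8 members overlaps another gene: RPL3B, AT4G36130, AT5G27850, RPL24A and RPS18C on the opposite strand, and RPS13A, RPS15 and RPS28 on the same strand.

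**Figure D4:**
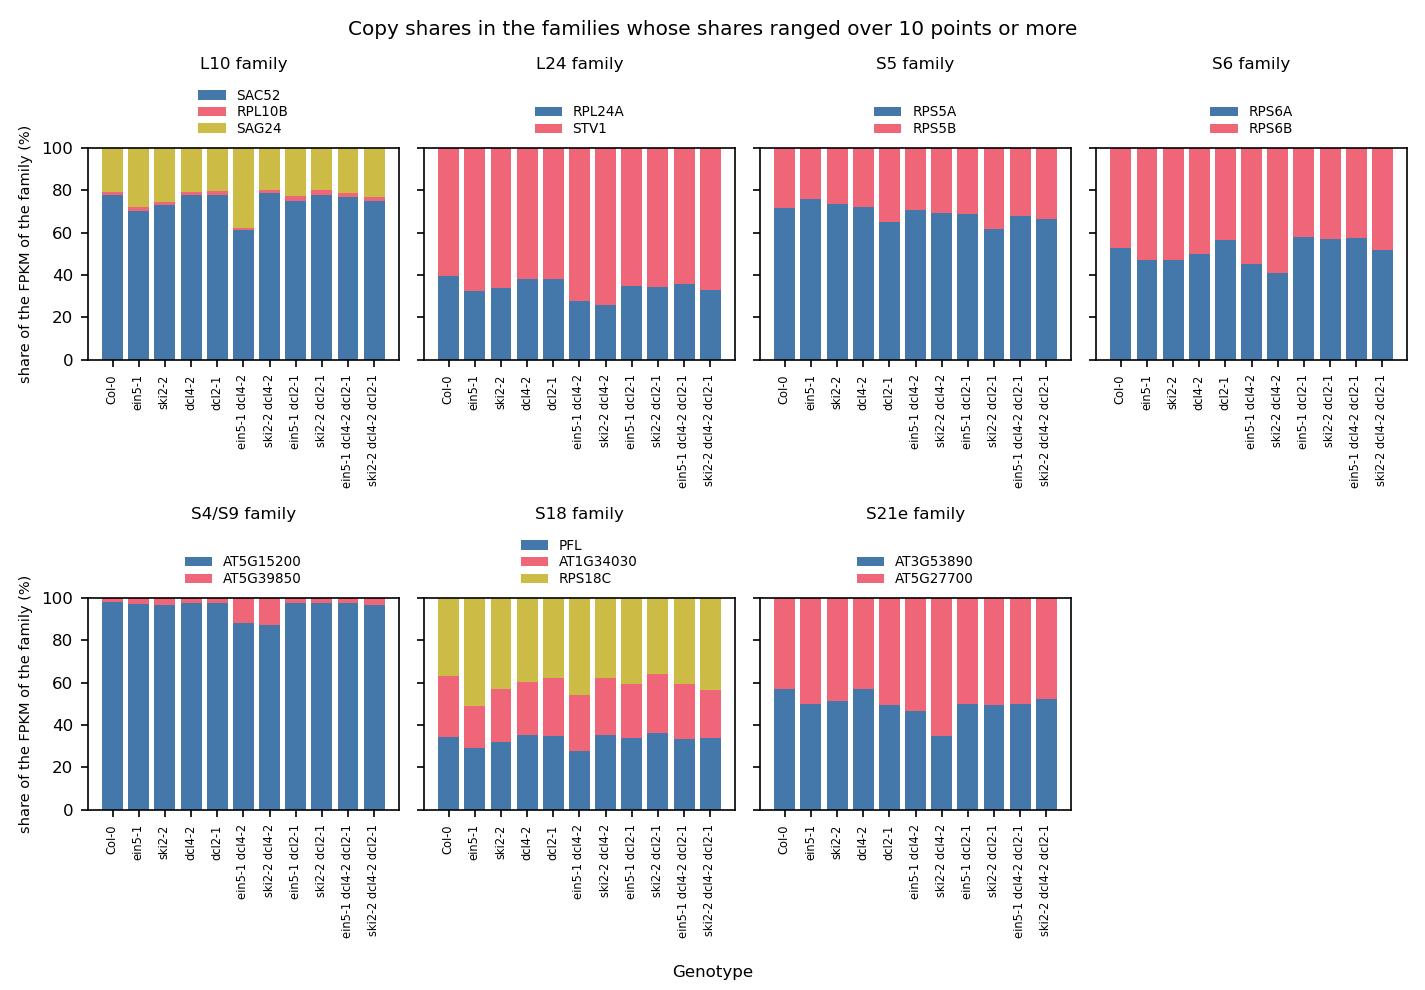
Stacked bars give each copy's share of the summed FPKM of its members in percent, per genotype, in the 7 families with a range of 10 points or more. SAG24 takes 37.8% of L10 in ein5-1 dcl4-2, AT5G39850 takes 12.9% of S4/S9 in ski2-2 dcl4-2, and AT3G53890 takes 34.9% of S21e there.

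The members with and without a site II element near the start were counted side by side, as a description. In ski2-2 dcl4-2 against ski2-2, the authors' deposited table had 16 rises and 0 falls among the 29 members with the element and 5 rises and 4 falls among the 16 without, where 27.8% of all genes rose and 29.7% fell. When dcl2-1 was added to ski2-2 dcl4-2, 0 rose and 12 fell among those with it, and 4 rose and 1 fell among those without, in the authors' deposited table, where 29.9% of all genes rose and 28.3% fell. The other comparisons of the authors' deposited table are given with the members that hold the element first. In ein5-1 dcl4-2 against Col-0, 21 of 29 and 10 of 16 fell and 3 and 2 rose, where 29.7% of all genes fell and 37.3% rose. Against ein5-1, 13 and 3 rose and 0 and 0 fell, where 32.7% of all genes rose and 29% fell. Against dcl4-2, 11 and 9 fell and 4 and 5 rose, where 29.1% of all genes fell and 37.4% rose. On adding dcl2-1 to ein5-1 dcl4-2, 25 of 29 and 13 of 16 rose and 1 and 1 fell, where 30.6% of all genes rose and 35.3% fell. In ski2-2 dcl4-2 against Col-0, 13 and 11 fell and 0 and 1 rose, where 28.3% of all genes fell and 30.3% rose. Against dcl4-2, 4 and 8 fell and 3 and 1 rose, where 27.5% of all genes fell and 30.8% rose. The contrast between members with and without the element was not tested.

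The other genes of the cytosolic ribosome, 170 in all, were counted in the same way. Among those at 1 FPKM or more, 122 of 160 fell and 5 rose in ein5-1 dcl4-2 against Col-0 in the authors' deposited table. Of all genes 29.7% fell and 37.3% rose there, and the median of this list was -0.46. In ski2-2 dcl4-2 108 of 160 fell and 4 rose, where 28.3% of all genes fell and 30.3% rose. The median of the list was -0.48 there, and it was -0.01 under quantile normalization. When dcl2-1 was added in the ein5-1 background, 147 of 161 rose and 3 fell, where 30.6% of all genes rose and 35.3% fell. In the ski2-2 background 25 of 160 rose and 32 fell in the authors' deposited table, where 29.9% and 28.3% of all genes did. The median of the list was 0.04 in that background, and it turned to -0.34 under quantile normalization. AT3G28500, an acidic stalk protein gene, had the lowest ratio of this list in ein5-1 dcl4-2, at 0.551 FPKM against 11.6 in Col-0. AT3G02190 had the highest, at 181 against 86.2 FPKM.

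Ribosomal proteins of the plastid, whose ribosomes translate mRNAs of the chloroplast genome, were also counted. Of 34 genes, 34 fell in the authors' deposited table in each of the 3 comparisons of ein5-1 dcl4-2 and of ski2-2 dcl4-2. Of all genes 27.5% to 29.7% fell in these comparisons. When dcl2-1 was added, 34 of 34 rose in either background, where 30.6% of all genes rose with ein5-1 and 29.9% with ski2-2. The median log2 ratio of the plastid list was -2.32 in ein5-1 dcl4-2 against Col-0 and -1.82 in ski2-2 dcl4-2 against Col-0. The plastid protein gene RPL15 (AT3G25920) went from 606 FPKM in Col-0 to 76.3 in ein5-1 dcl4-2. Their summed FPKM was 20980 in Col-0, 4270 in ein5-1 dcl4-2 and 5785 in ski2-2 dcl4-2, alongside the leaf markers given above.

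Assembly factors, which process rRNA and build the subunits, were counted next. In ski2-2 dcl4-2 against ski2-2, 28 of 35 rose and 0 fell in the authors' deposited table, with 0.70 as the median. Of all genes 27.8% rose and 29.7% fell there. When dcl2-1 was added to ski2-2 dcl4-2, 26 fell and 1 rose, where 28.3% of all genes fell and 29.9% rose. On its addition to ein5-1 dcl4-2, 22 rose and 4 fell, with 0.38 as the median. There 30.6% of all genes rose and 35.3% fell. In ein5-1 dcl4-2 against Col-0, 9 rose and 8 fell in the authors' deposited table, where 37.3% of all genes rose and 29.7% fell. The median of 0.08 for the assembly factors turned to -0.15 under quantile normalization. Nucleolin NUC-L2, which acts on rRNA genes and rRNA processing, rose from 0.587 FPKM in Col-0 to 5.15 in ein5-1 dcl4-2 and 4.48 in ski2-2 dcl4-2 in the authors' deposited table. NUC-L1 rose from 125 to 230 FPKM in ski2-2 dcl4-2 in the authors' deposited table.

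Of 14 translation elongation factor genes, 6 rose and 2 fell in ein5-1 dcl4-2 against Col-0, and 9 rose and 0 fell in ski2-2 dcl4-2 according to the authors' deposited table. The ELF5A-3 gene for eIF5A, which helps ribosomes past difficult peptide bonds, rose from 138 to 352.5 FPKM in ein5-1 dcl4-2 in the authors' deposited table. Of 10 genes of TOR signalling and ribosomal stress, 5 rose and 1 fell in ein5-1 dcl4-2 against Col-0, and 4 rose and 2 fell in ski2-2 dcl4-2, in the authors' deposited table; the first median, 0.23, turned to -0.01 under quantile normalization. For these and the elongation factor genes, the shares of all genes that rose and fell were 37.3% and 29.7% in ein5-1 dcl4-2 and 30.3% and 28.3% in ski2-2 dcl4-2. S6K2, a kinase of the S6 protein, rose from 6.61 to 36.5 FPKM in ein5-1 dcl4-2, and NAC082, a transcription factor of the ribosomal stress response, from 22.4 to 52.2, in the authors' deposited table. In ski2-2 dcl4-2 S6K2 rose to 11.9 FPKM and its relative PK1 fell from 69.1 to 47.5 FPKM in the authors' deposited table.

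**Figure D5:**
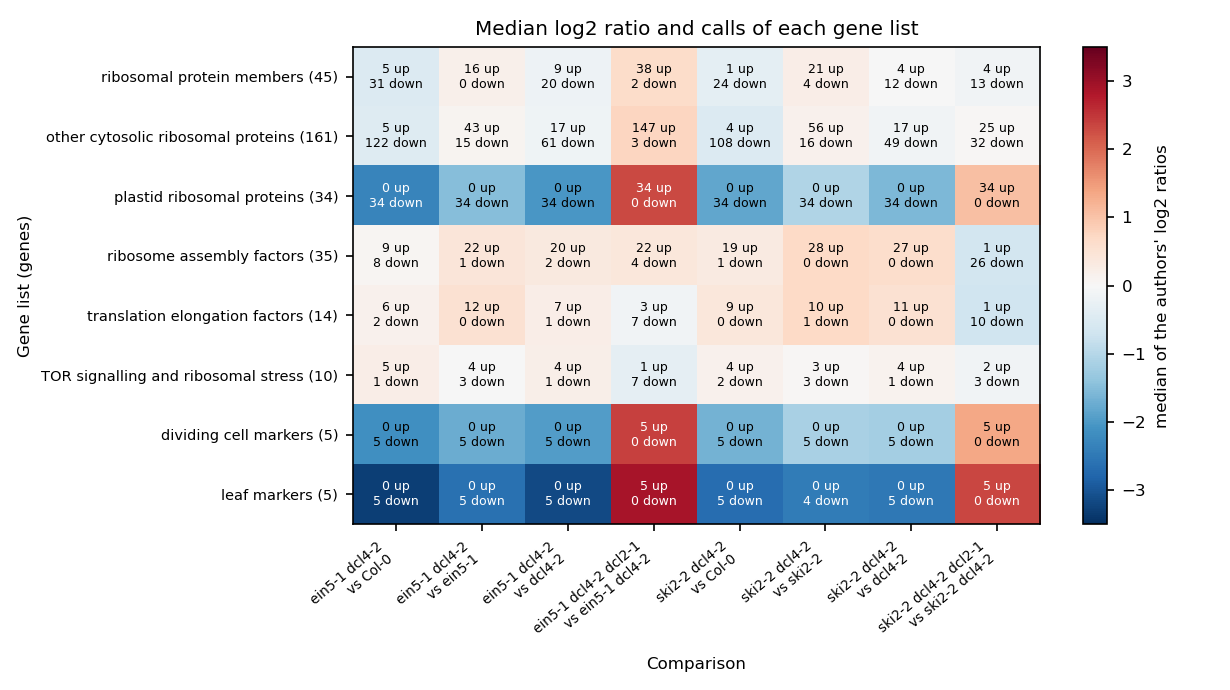
Rows are gene lists with their number of genes, columns are the 8 tested comparisons, the colour is the median of the authors' log2 ratios, and the figures in each cell count genes that rose (up) or fell (down). The plastid ribosomal proteins fell in 34 of 34 in each comparison of the double mutants with dcl4-2, where 27.5% to 29.7% of all genes fell. The other cytosolic ribosomal proteins fell in 122 of 160 in ein5-1 dcl4-2 against Col-0, where 29.7% of all genes fell. Under quantile normalization the members' medians of ski2-2 dcl4-2 against Col-0 and dcl4-2 turn positive.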

How the data were processed

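Poly(A) RNA of 33 libraries, 3 for each of 11 genotypes, was measured. The submitters' processing notes name TopHat2 2.1.1, Cuffdiff (version not given in the sources used here) and the genome build TAIR10. The deposited table gives 1 FPKM value per gene and genotype, pooled by the authors over the libraries, with the authors' log2 ratios and q-values for 8 comparisons. Library values were not analysed here, so levels have no SD, no depth interval could be given and no test was added to that of the authors. A gene rose or fell at a q of 0.05 with 1 FPKM or more in either genotype. Cuffdiff's adjusted values are the q-values of the authors' deposited table. The authors' log2 ratios of ski2-2 dcl4-2 lay above those of the listed FPKM by a median of 0.013 against Col-0 and 0.016 against dcl4-2. In the other comparisons they matched the listed FPKM. The reason is not stated. Differences without a test were computed as log2(FPKM + 1), with a pseudocount of 1.

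The 45 members were matched by identifier, and RefSeq names and TAIR10.1 coordinates matched 45 of 45. Named with values were, per tested comparison, up to 12 members that passed the q, by size of the log2 ratio, in every comparison the 3 members with the largest rise and the 3 with the largest fall in log2(FPKM + 1), the highest and lowest copy of each family by mean FPKM, and the members of highest and lowest mean. Of each other list, at most 3 genes each way that passed the q were named. Members outside this rule that passed the q in opposite directions between backgrounds were chosen after their values were seen. The members and the lists of other genes were chosen with earlier results of these data known. Motifs were searched in the 250 bases before the annotated start. Alternatives were a 2-fold minimum, other FPKM minimums, another pseudocount, quantile normalization, median-of-ratios scaling and family sums. The arithmetic was tested on simulated data. Python 3.11.15, numpy 2.4.6, pandas 2.3.3, matplotlib 3.10.9 and Biopython 1.88 were used.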

Additional observations from a re-analysis of the deposited data

Results flagged for a closer look

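Some members passed the q of the authors' deposited table in opposite directions in the matching ein5-1 and ski2-2 comparisons. The difference between the backgrounds was itself not tested, since library values were not analysed here. It is given below as the log2 ratio in the ein5-1 background minus that in the ski2-2 background.

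When dcl2-1 was added to the double mutants, 11 members rose in the ein5-1 background and fell in the ski2-2 background, which is 24.4% of the 45, against 4.87% of 18850 genes. With 84.4% of the members rising in the ein5-1 background and 28.9% falling in the ski2-2 background, a count of this size follows from those shares alone. In the large subunit the differences were 1.24 for RPL3A (0.81 against -0.43), 0.82 for AT3G09630 (0.46 against -0.36), 0.86 for SAC52 (0.47 against -0.39), 1.04 for AT3G58700 (0.63 against -0.41), 0.89 for RPL18 (0.61 against -0.28) and 1.29 for AT5G27850 (0.80 against -0.49). In the small subunit they were 0.91 for AT5G35530 (0.36 against -0.55), 0.93 for RPS5A (0.66 against -0.27), 0.91 for RPS6B (0.45 against -0.46), 0.89 for AT1G34030 (0.63 against -0.26) and 0.82 for AT5G27700 (0.51 against -0.31). Beside these, CCA1 was at 9.34 FPKM in ein5-1 dcl4-2 dcl2-1 against 69.3 in ein5-1 dcl4-2, and at 165 in ski2-2 dcl4-2 dcl2-1 against 80.0 in ski2-2 dcl4-2, and its part was not tested.

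Against dcl4-2, a control that both comparisons share, AT5G03850 rose in ein5-1 dcl4-2 and fell in ski2-2 dcl4-2, with a difference of 1.00 (0.40 against -0.59); 3.26% of 19091 genes did so. RPS28 did the same with a difference of 0.56 (0.27 against -0.29), and its fall turned positive under quantile normalization.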

How the results depend on the processing

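No paired analysis was possible because the deposited values are pooled over the 3 libraries of a genotype. For the same reason, leaving out each replicate in turn was not run. A minimum of 2-fold left 3 members called in ein5-1 dcl4-2 against Col-0, 3 against ein5-1, 3 against dcl4-2 and 5 on adding dcl2-1, and 4, 1, 1 and 1 in the matching ski2-2 comparisons. A minimum of 5 FPKM, or none, kept all 8 counts within 1.5 times. Quantile normalization reversed the members' median in ski2-2 dcl4-2 against Col-0 (0.049) and against dcl4-2 (0.26). It moved the median to 0.060 in ein5-1 dcl4-2 against ein5-1, -0.33 against dcl4-2, 0.63 in ski2-2 dcl4-2 against ski2-2 and -0.52 on adding dcl2-1 to it. Against Col-0 it moved the median to -0.50 in ein5-1, -0.49 in ski2-2, -0.17 in dcl4-2, 0.095 in ein5-1 dcl2-1 and -0.31 in ski2-2 dcl4-2 dcl2-1. Median-of-ratios scaling moved the median of ein5-1 dcl4-2 against dcl4-2 to -0.28. Taken relative to the median of all genes, an alternative chosen after seeing the data, it was -0.31 there and -0.60 against Col-0. The cause was not tested. Quantile normalization shifted the median of all genes by -0.15 in ein5-1 dcl4-2 and by under 0.1 elsewhere. The other pseudocount and the family sums moved no median by more than 0.1. Depth is unknown, so its limits cannot be given.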
